A study of Mus musculus with 6 samples.

Results

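The 9 genes described here encode the amyloid precursor protein and its relatives (App, Aplp1, Aplp2), enzymes that cut it (Adam10, Bace1, Psen2, Psenen), the microtubule-binding protein tau (Mapt) and Bin1, a membrane-bending protein. They were taken by name from the 55421 genes in the data, with earlier results of these data known. Bulk RNA-seq was performed on the cerebral cortex of wild-type male C57BL/6J mice killed under isoflurane anesthesia, 3 of 6 months (mice 10, 11 and 17) and 3 of 24 months of age (mice 2, 4 and 5). Libraries were made from 10 ng of total RNA with a low-input kit, and the animals carry no transgene, so mRNA of the endogenous mouse genes was measured. Levels are given as TPM (transcripts-per-million, a count divided by the gene's exonic length and scaled so that each library has the same sum), and changes as log2 fold changes of 24 against 6 months.

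App is a membrane protein that is cut along competing routes. A cut by the alpha-secretase Adam10 releases a soluble ectodomain and lies within the amyloid-beta sequence, whereas a cut by the beta-secretase Bace1 frees its start, after which gamma-secretase, a complex that includes a presenilin such as Psen2, nicastrin, Aph1 and Psenen, releases the amyloid-beta peptide. Tau binds axonal microtubules, and amyloid-beta and tau deposits define Alzheimer's disease, for which age is the main risk factor and the human BIN1 locus a common genetic one.

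All 9 genes were well expressed and in the same order in both age groups' mean TPM. Aplp1 had the highest level, ranking 38 among all genes by mean TPM, followed by Aplp2 (rank 212), App (rank 478), Bin1, Mapt, Adam10, Psenen, Bace1 and Psen2 (rank 8568). Neighbours in this order did not overlap over the 6 libraries, with the exception of Adam10 and Psenen, for which Adam10 was the higher in 5 of 6 libraries. Each of the 9 passed the filter on low counts, and each exceeded a mean of 10 CPM (counts-per-million), as did 10030 of the 32905 genes tested.

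Tested by quasi-likelihood in edgeR under TMM scaling (trimmed mean of M-values, factors of 0.9205 to 0.9459 at 6 months and 1.037 to 1.101 at 24 months), App, Aplp2, Adam10 and Bace1 were lower at 24 months at a false discovery rate (FDR) of 10%, by 17.6% to 26.7%, and none of the 9 was higher. These are 4 of 9, against 18.4% of all genes tested in either direction and 8.33% lower; among the genes with at least 10 CPM, 25.3% were lower. At 1% FDR 0 of the 9 and 0 of all genes passed in this test. At an unadjusted p under 0.05 in the same test, 4 of the 9 were lower, as were 38.4% of the genes with at least 10 CPM. Over all genes tested, 30.7% had such a p in either direction. The count of the 9 at 1% FDR was also 0 with edgeR's likelihood ratio and exact tests and with DESeq2. Over all genes, 1703, 1122 and 227 passed 1% FDR in those tests, in that order. Aplp1, Psen2, Psenen, Mapt and Bin1 did not pass the threshold. Without mouse 10, 11, 2 or 4 the count at 10% FDR was 0 (over all genes it was 0, 1, 176 and 0). Without mouse 17 it was 1 (Aplp2), beside 2476 of 32090 genes tested, and without mouse 5 it was 4, beside 7998 of 31275. Of the 10030 genes with at least 10 CPM, 1170 were lower without mouse 17 and 3291 without mouse 5. The 4 calls depended on how libraries were scaled, as described after the single genes.

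**Figure D1:**
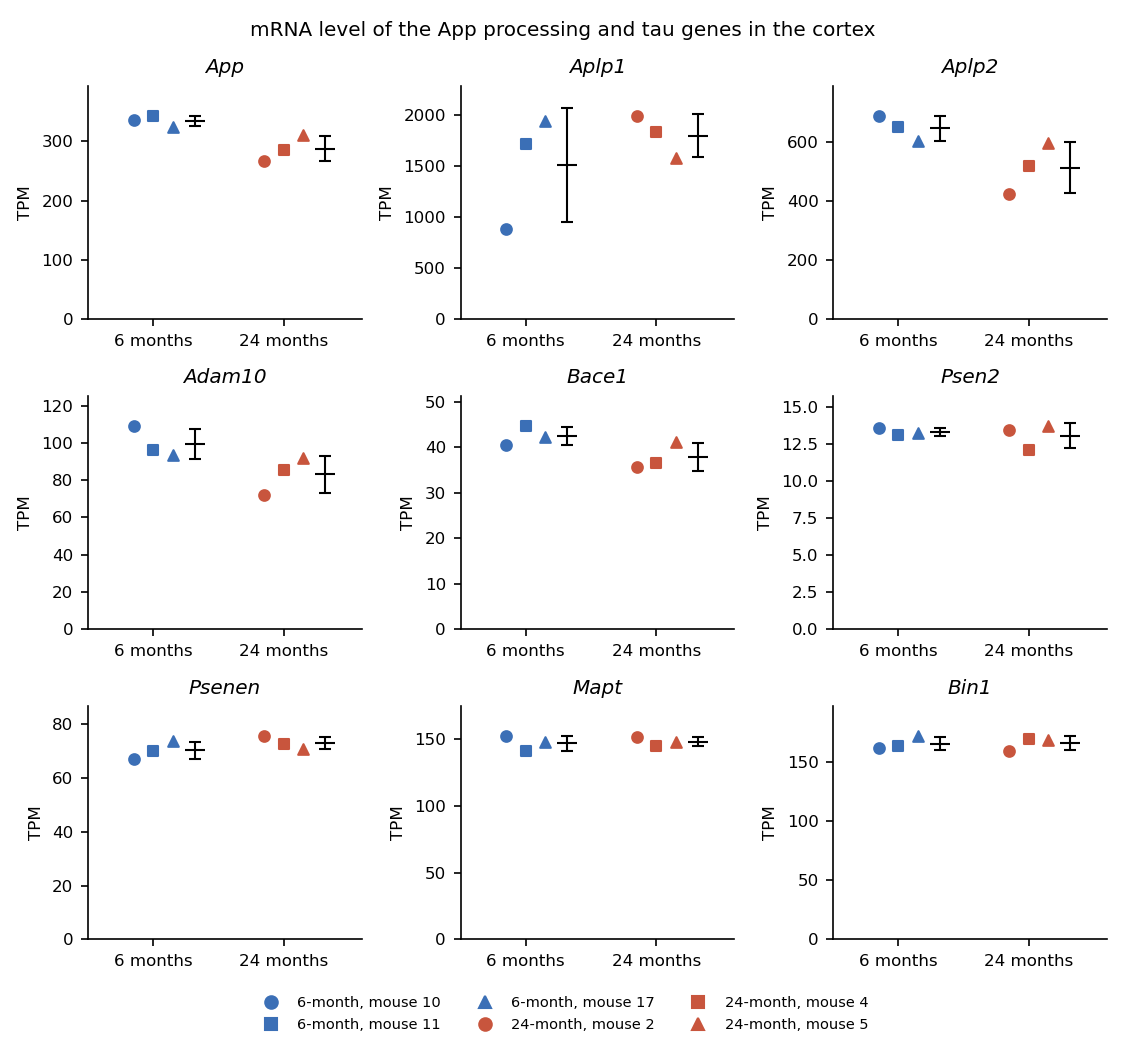
TPM (y axis, from 0) of each of the 9 genes in the 3 libraries of 6 months (blue) and the 3 of 24 months (red), with the mouse shown by its symbol and the mean ± SD in black. App, Aplp2 and Adam10 are lower in all 24-month libraries, Aplp1 is lowest in the 6-month mouse 10, and Mapt and Bin1 hardly differ.

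App, the precursor of amyloid-beta, lies on chromosome 16 (16:84949685-85173766, minus strand, GRCm38). Its level was 335.9, 341.8 and 324.5 TPM in the 6-month mice 10, 11 and 17, and 267.3, 284.8 and 309.8 TPM in the 24-month mice 2, 4 and 5. Every 24-month library lay below every 6-month library, as for 8.65% of all genes tested and 24.4% of those with at least 10 CPM, with means of 334.1 ± 8.81 and 287.3 ± 21.4 TPM (SD, n = 3 each). The change was -0.33 on the log2 scale (SE 0.09, 95% confidence interval -0.53 to -0.14, edgeR quasi-likelihood test, FDR = 0.0612). App was the only one of the 9 for which the 24-month libraries were all lower on each scale used, that is in TPM, in CPM scaled by TMM and in CPM scaled by library totals; by library totals 4.73% of all genes tested and 13% of those with at least 10 CPM separated in this way. Scaled by TMM, 7 of the 9 did, all but Aplp1 and Psenen, against 45.6% of genes with at least 10 CPM. In tissue RNA, fewer cells that express a gene and less of its RNA per cell cannot be told apart.

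Aplp2, a widely expressed relative of App that is cut by the same enzymes, is encoded on chromosome 9 (9:31149557-31211815, minus strand). It measured 685.6, 650.5 and 601.5 TPM at 6 months and 423.7, 517.9 and 595.4 TPM at 24 months. The ages did not overlap in TPM, but the 24-month mouse 5 lay just under the lowest 6-month mouse. The log2 fold change of -0.45 was the largest of the 9 (SE 0.12, interval -0.73 to -0.17, edgeR quasi-likelihood test, FDR = 0.0633), and 8.14% of the genes with at least 10 CPM had a lower one.

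Aplp1, the neuronal relative of App, is encoded on chromosome 7 (7:30434982-30445535, minus strand). It measured 884.4, 1722 and 1941 TPM at 6 months against 1990, 1838 and 1581 TPM at 24 months. The 6-month mouse 10 stood apart from the other 5 libraries, at -0.79 relative to the gene's mean on the log2 CPM scale. The log2 fold change was 0.14 (SE 0.23, interval -0.38 to 0.66, edgeR quasi-likelihood test, FDR = 0.712) and -0.13 without mouse 10, so no direction was resolved. In the same mouse Aplp1 made up 46.4% of the summed TPM of the 3 family members, compared with 63.4% to 74.2% in the other libraries. The 3 genes whose log2 CPM followed Aplp1 most closely over the 6 libraries were Gnas (Pearson r = 0.9968, n = 6), Dmwd and Evl, and all 3 were lowest in mouse 10, with Gnas at 42.3 TPM there and 91.4 to 121.6 TPM in the others. Among the 10029 genes compared, App was followed most closely by Lrp11 (r = 0.9983), Gpd2 and Atp6v0a1, each lower in all 24-month libraries. These likenesses describe 6 libraries that share age and depth, and carry no test.

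Adam10, the main neuronal alpha-secretase (9:70678997-70780229, plus strand), measured 108.8, 96.2 and 93.3 TPM at 6 months and 72.0, 85.5 and 91.8 TPM at 24 months. The groups did not overlap, although the 24-month mouse 5 was close to the 6-month mouse 17. Its log2 fold change was -0.37 (SE 0.11, interval -0.63 to -0.12, edgeR quasi-likelihood test, FDR = 0.0747). Bace1, the beta-secretase (9:45838580-45864399, plus strand), measured 40.4, 44.6 and 42.4 TPM at 6 months and 35.7, 36.6 and 41.3 TPM at 24 months. Here the 24-month mouse 5 lay above the 6-month mouse 10, so the TPM ranges overlapped, and the log2 fold change was -0.28 (SE 0.10, interval -0.49 to -0.07, edgeR quasi-likelihood test, FDR = 0.0928). Of Bace1's exonic bases, 15.4% are also exonic in Rnf214 on the other strand, and no strand setting is stated for the counting, so that reads there cannot be assigned to either gene.

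Promoter sequences are shown for the 3 genes that were lower in TPM in every 24-month library. Each reads 5′ to 3′ on the strand of its gene, from RefSeq (GRCm38.p6), and ends before the start of the gene in both RefSeq and GENCODE vM21. Capitals mark GGGCGG or its reverse complement CCGCCC, the core of the GC box that Sp-family factors bind, with overlapping matches counted.
App, chr16:85173767-85173957, minus strand: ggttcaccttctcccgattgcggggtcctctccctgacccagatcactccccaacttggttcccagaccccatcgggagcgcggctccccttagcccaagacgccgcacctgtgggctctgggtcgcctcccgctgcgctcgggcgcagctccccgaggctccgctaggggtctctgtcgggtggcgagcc
Aplp2, chr9:31211849-31212098, minus strand: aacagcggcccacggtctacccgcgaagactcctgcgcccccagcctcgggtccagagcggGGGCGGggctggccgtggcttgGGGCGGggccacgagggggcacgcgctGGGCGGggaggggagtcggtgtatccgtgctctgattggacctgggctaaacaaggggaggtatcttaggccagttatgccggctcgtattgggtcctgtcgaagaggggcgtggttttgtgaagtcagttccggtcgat
Adam10, chr9:70678732-70678981, plus strand: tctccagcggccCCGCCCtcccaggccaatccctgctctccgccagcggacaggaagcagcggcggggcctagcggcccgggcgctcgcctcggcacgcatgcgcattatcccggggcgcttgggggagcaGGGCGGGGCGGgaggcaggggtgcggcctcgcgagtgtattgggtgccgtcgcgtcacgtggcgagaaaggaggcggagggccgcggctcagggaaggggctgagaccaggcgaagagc
In the 250 bases before the RefSeq start, Aplp2 and Adam10 had 3 matches each, and App 1, which lies past the stretch shown. At least 1 match occurred in 32.7% of all 32851 such windows and at least 3 in 8.47%. Aplp1, which did not pass the test, also had 1 match, the upstream of the pair of Psen2 windows had 2 and the other 0, and both Psenen windows had 0. Bace1, Mapt and Bin1 had no entry in the promoter table.

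Psen2, a presenilin, of the proteins that form the catalytic core of gamma-secretase (1:180227004-180263438, minus strand), was the lowest of the 9, at 13.6, 13.1 and 13.2 TPM at 6 months and 13.4, 12.1 and 13.7 TPM at 24 months. Psenen, the small subunit that completes the complex (7:30561863-30563627, minus strand), measured 67.2, 70.3 and 73.7 TPM at 6 months and 75.5, 72.7 and 71.0 TPM at 24 months. The ages overlapped for both genes. For Psen2 the log2 fold change was -0.14 (interval -0.39 to 0.11, edgeR quasi-likelihood test, FDR = 0.410). For Psenen it was -0.06 (interval -0.28 to 0.16, edgeR quasi-likelihood test, FDR = 0.710). The intervals are on the TMM scale and leave room for a fall or a rise of either gene. A processed copy, Psenen-ps, carried 5 to 8 counts per library, against 756 to 874 for Psenen.

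Mapt, which encodes tau (11:104231390-104332090, plus strand), measured 152.2, 141.2 and 147.9 TPM at 6 months and 151.6, 145.3 and 148.3 TPM at 24 months. Bin1 (18:32377230-32435737, plus strand) measured 161.8, 163.4 and 171.8 TPM at 6 months and 159.2, 169.5 and 169.2 TPM at 24 months. In TPM the age groups of both genes overlapped and their means differed by less than 1 SD, 147.1 ± 5.51 against 148.4 ± 3.15 TPM for Mapt and 165.6 ± 5.36 against 165.9 ± 5.87 TPM for Bin1. For Mapt the log2 fold change was -0.10 (SE 0.08, interval -0.28 to 0.08, edgeR quasi-likelihood test, FDR = 0.424). It was -0.11 for Bin1 (SE 0.08, interval -0.30 to 0.07, edgeR quasi-likelihood test, FDR = 0.385). Scaled by library totals, the log2 fold changes of Mapt and Bin1 were instead above 0, at 0.09 and 0.08, so the sign of these differences rests on the scaling. In CPM by library totals, every 24-month library lay above every 6-month library for both genes. The share of all genes that separated upward in this way was not counted.

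The scaling matters for the whole comparison. The median log2 fold change of the genes with at least 10 CPM was -0.20 with TMM factors over all genes tested, -0.01 with library totals and 0.0085 with TMM factors of those genes alone. With TMM 8 of the 9 genes were below 0, but relative to the median of -0.20 App was at -0.13, Aplp2 at -0.25, Adam10 at -0.17 and Bace1 at -0.08, whereas Aplp1 was at 0.34, Psenen at 0.14, Mapt at 0.10, Bin1 at 0.09 and Psen2 at 0.06. These signs relative to the median were kept in each of the 16 alternatives run. A change of scaling moves a gene and the median alike, so the alternatives that differ in scaling could hardly alter these signs. Over all alternatives App lay between -0.17 and -0.09 relative to the median, and Psen2 between 0.01 and 0.11. None of the 9 passed 10% FDR with library totals, with TMM factors of the genes with at least 10 CPM, with edgeR's filterByExpr or with limma on log2(TPM + 1), and with library totals, which called 2.77% of the genes with at least 10 CPM as lower, the fold changes on the log2 scale were -0.14 for App, -0.26 for Aplp2, -0.18 for Adam10 and -0.09 for Bace1.

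**Figure D2:**
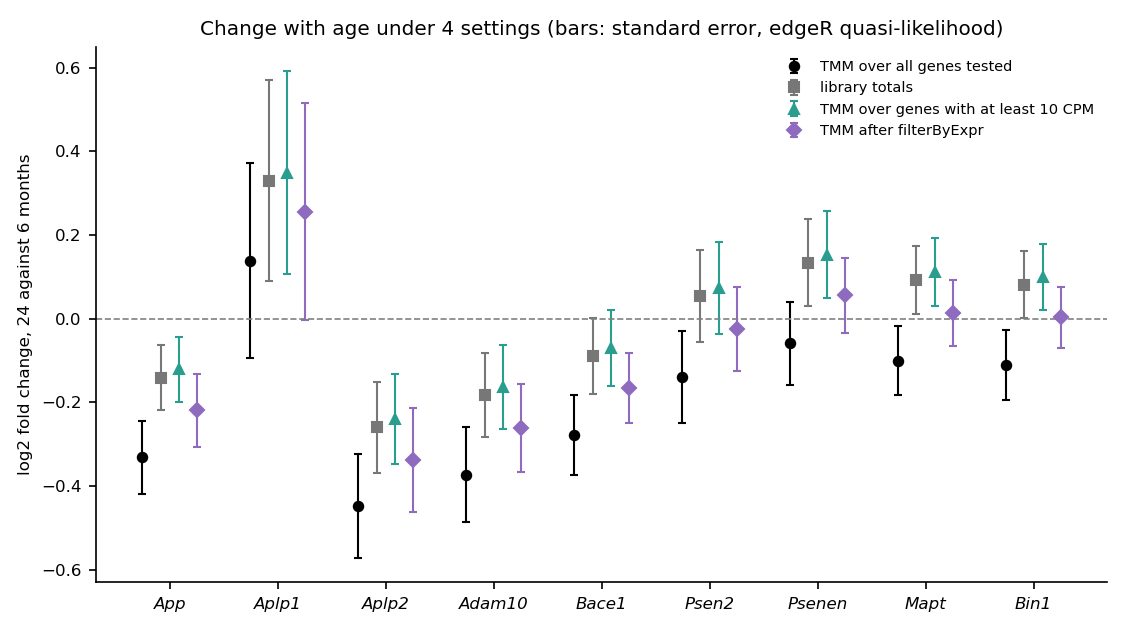
Log2 fold change of 24 against 6 months (y axis) of each of the 9 genes with TMM factors over all genes tested, with library totals, with TMM factors of genes with at least 10 CPM and with TMM after filterByExpr, with bars for the standard error of edgeR's quasi-likelihood fit (n = 3 per age). App, Aplp2, Adam10 and Bace1 are below 0 under all 4, with App between -0.33 and -0.12, whereas Mapt and Bin1 lie at -0.10 and -0.11 with TMM over all genes tested and above 0 under the other 3 settings drawn; with DESeq2 size factors, not drawn, they were at -0.10 and -0.10.

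A ratio of a pair of genes within a library does not depend on the scaling. The ratios were not adjusted for GC content, which was 52.5% for Mapt and 46.1% for App and is taken up below. The ratio of Mapt to App in TPM was 0.453, 0.413 and 0.456 at 6 months and 0.567, 0.510 and 0.479 at 24 months. It was higher in every 24-month library, by 17.6%, or 0.23 on the log2 scale (two-sided exact permutation test, p = 0.1, below which 3 against 3 mice cannot go, and exact p = 0.6 after adjustment over the 6 ratios). None of the other 5 ratios separated the ages. The ratio of Bace1 to Adam10, the enzymes that compete for App, was 0.372, 0.463 and 0.454 in the younger mice, and in the older ones 0.496, 0.428 and 0.450, which is a log2 difference of 0.10 (exact permutation test, p = 0.6). The log2 difference of Aplp2 to App was -0.13 (exact permutation test, p = 0.3), that of Aplp1 to App 0.54 (exact p = 0.2), that of Psen2 to Psenen -0.08 (exact p = 0.4) and that of Bin1 to Mapt -0.01 (exact p = 0.7).

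**Figure D3:**
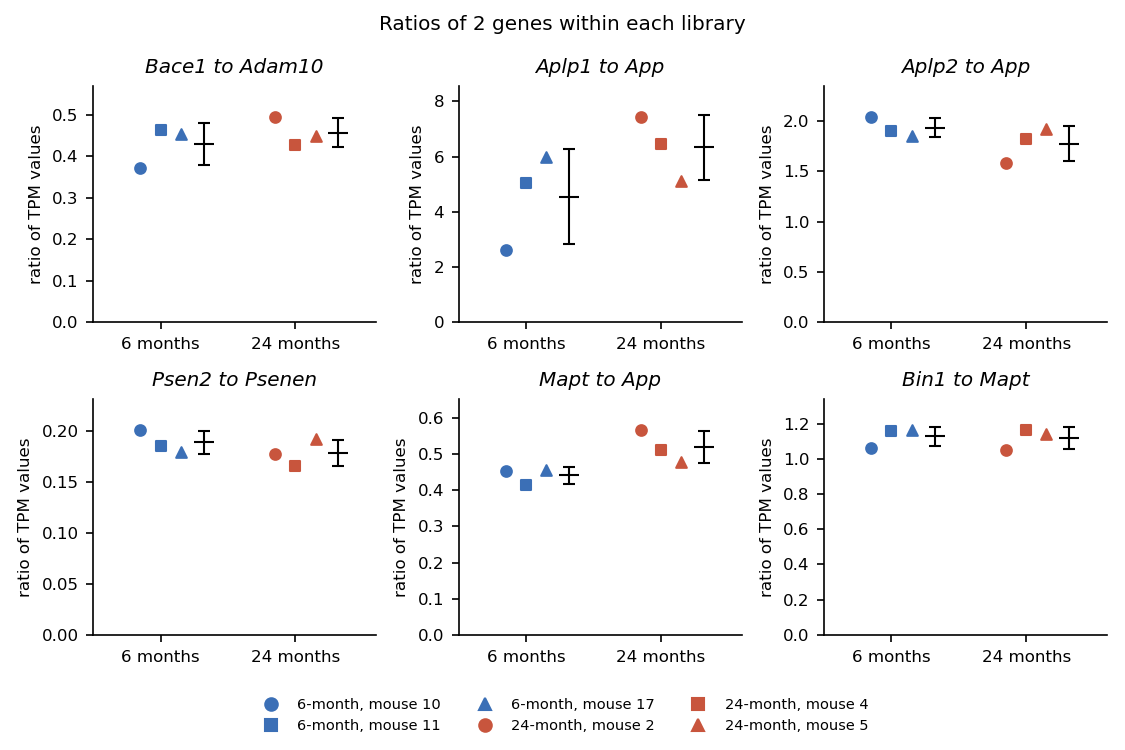
Ratio of the TPM values of a pair of genes within each library (y axis, from 0) for 6 pairs, at 6 months (blue) and 24 months (red), with the mean ± SD in black. For Mapt to App the 24-month libraries, at 0.479 to 0.567, are all above the 6-month libraries, at 0.413 to 0.456; the ages overlap for the other 5 pairs.

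Several properties of the libraries moved with these results. The transcripts' GC content was related to the deviation of a library from the gene mean. The 2808 genes with at least 10 CPM and under 45% GC had median deviations of 0.20, 0.12 and 0.10 (log2 CPM) in mice of 6 months, against -0.26, -0.11 and -0.03 in those of 24 months. For the 385 such genes of at least 60% GC the values were 0.0013, 0.0185 and 0.105 against 0.0541, -0.0303 and -0.0706. The median log2 fold change was -0.26 under 45% GC and -0.06 at 60% or more. Adam10 (42.1% GC), App (46.1%), Aplp2 (48.4%) and Bace1 (50%) have the lowest GC content of the 9, and Aplp1 (59.4%) the highest. An offset that follows GC content in each library also recentres the libraries, to a median log2 fold change of 0.0068 over the genes with at least 10 CPM. Relative to the median of the fit, App went from -0.13 to -0.09 with this offset, Aplp2 from -0.25 to -0.23, Adam10 from -0.17 to -0.11 and Bace1 from -0.08 to -0.07. With the offset, by the same edgeR test 0 of the 9 passed 10% FDR, with 0 below an unadjusted p of 0.05, but 0 of the 9 also passed 10% FDR with library totals alone, so the lost calls cannot be assigned to GC content. The low Aplp1 value of mouse 10 was as far from the mean with that offset, at -0.83 on the log2 CPM scale against -0.79 without it.

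**Figure D4:**
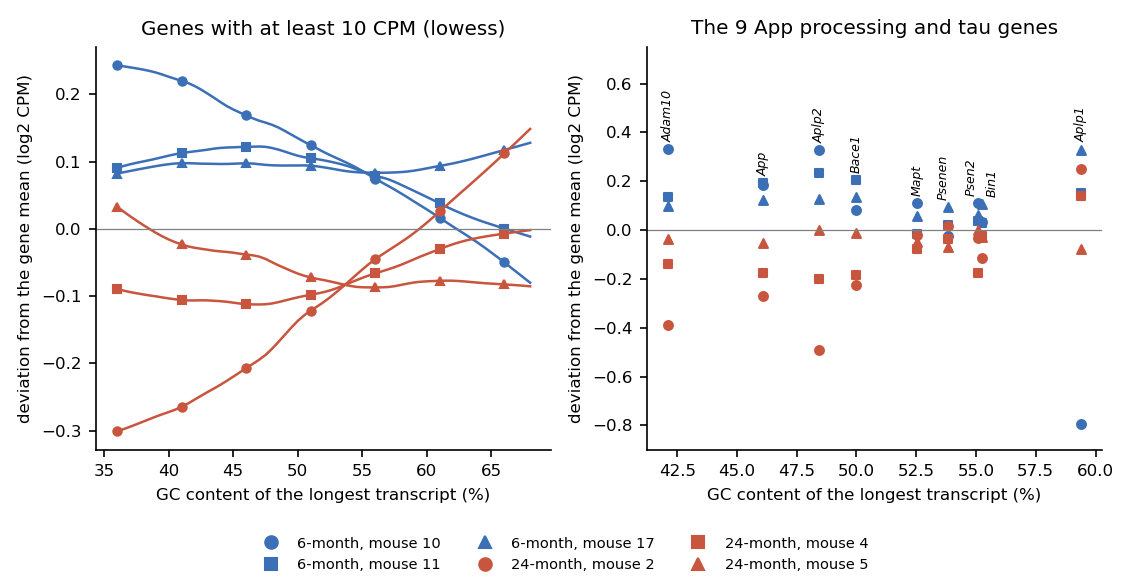
Deviation of each library from the gene mean (y axis, log2 CPM scaled by TMM) against the GC content of the longest transcript (x axis, %), as smoothed curves over genes with at least 10 CPM (left) and for the 9 genes (right). Genes of low GC content are high in the 6-month mouse 10 and low in the 24-month mouse 2, and App, Aplp2 and Adam10 follow the same order of ages, while Aplp1 in mouse 10 lies at -0.79.

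The markers of neurons, in which App, Aplp1 and tau are abundant, were all present, as in the labelled tissue, with 4905 to 5674 summed TPM at 6 months and 3967 to 5122 TPM at 24 months, and 3 of 6 (Syt1, Stmn2 and Tubb3) were lower at 24 months at 10% FDR, against 25.3% of all genes with at least 10 CPM. On summed CPM the log2 difference of the neuronal markers was -0.33 with TMM and -0.13 with library totals, and that of the astrocyte markers -0.07 and 0.13. Astrocyte markers summed to 941.9 to 1003 TPM at 6 months and 1051 to 1077 TPM at 24 months, with Gfap the 1 of 6 that was called, as higher. Their median log2 fold change was -0.12 with TMM. Aqp4 (-0.40), Gja1 (-0.17), Slc1a3 (-0.16) and Aldh1l1 (-0.09) were below 0, and Gfap (0.69) and S100b (0.05) above. Microglial markers summed to 595.4 to 612.7 and 644.8 to 675.7 TPM, with Tmem119 called higher and Csf1r lower of 6. Oligodendrocyte markers, of cells in which Bin1 is also abundant, ranged from 1431 to 2267 TPM at 6 months and from 860.9 to 2600 TPM at 24 months, and 0 of 7 were called (edgeR quasi-likelihood test, 10% FDR). No marker was at 0 counts in any library. The part of these cell types in the changes of the 9 genes was not tested. Counts totalled 29495379 to 36494240 per library. Genes with any count numbered 33974 to 35651 in the 6-month libraries and 40208 to 43561 in the 24-month libraries. The 1703 olfactory and vomeronasal receptor genes, mostly silent in cortex, were at 0.0203 to 0.0232 CPM per exonic kb at 6 months and 0.0549 to 0.0940 at 24 months. That density would make up at most 2.43% of the count of any of the 9 genes (Psen2, mouse 2).

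The other genes of the App and tau pathways, a list of 75, had 18 lower and 0 higher at 10% FDR (24%, close to the 25.9% of all genes with at least 10 CPM), and 53 were below 0, with a median log2 fold change of -0.14. With library totals 5 passed, 2 lower and 3 higher, and the median was 0.06. Of the other gamma-secretase genes listed, 2 of 4 fell: Aph1b was at 21.6, 23.2 and 19.9 TPM at 6 months and 13.6, 17.4 and 19.1 TPM at 24 months (log2 fold change -0.48, edgeR quasi-likelihood test, FDR = 0.0665), and Ncstn, which encodes nicastrin, was at -0.27. Aph1b was lower in every 24-month library in TPM, unlike Ncstn, Psen2 and Psenen. With library totals 0 of these 4 other gamma-secretase genes passed 10% FDR. Of the other sheddases 0 of 5 passed, with Adam9, the most abundant, at -0.41. Of the adaptors that bind the tail of App 1 of 10 fell, Apba2 (-0.36), with the most abundant, Apbb1, at -0.18. With library totals Apba2 did not pass, and 2 of the 10 adaptors passed as higher, Apbb1ip (0.55) and Mapk8ip1 (0.32).

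Sorting and trafficking genes of App had 6 of 16 lower (25.3% of all genes with at least 10 CPM were), and 1 of 16, Vps35, passed with library totals. Vps35, the core subunit of the retromer complex that returns App from endosomes, was the gene of this list with the smallest p, at 151.5, 146.5 and 130.4 TPM at 6 months and 100.5, 109.6 and 117.4 TPM at 24 months (log2 fold change -0.50, edgeR quasi-likelihood test, FDR = 0.0518). Its FDR was 0.0753 with library totals and 0.0799 with TMM factors of the genes with at least 10 CPM (edgeR quasi-likelihood test). Rtn3, a reticulon that binds Bace1, was at -0.40, the endosomal adaptor Gga3 at -0.33 and the receptor Lrp1b at -0.50, while Itm2c, the most abundant, was at -0.13 and did not pass. Of the enzymes that degrade amyloid-beta, 1 of 4 fell, Ece1 (-0.32), with Ide at 0.01.

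Of the tau kinases and their activators 1 of 13 fell, Cdk5r1 (-0.39), which encodes the p35 activator of Cdk5 and was the most abundant of the group. Beside this count and those that follow, 25.3% of all genes with at least 10 CPM were lower. With library totals 0 of the kinase, phosphatase and microtubule genes listed passed 10% FDR. In that setting 2 of 10 Bin1 relatives and partners passed, Sh3gl2 as lower and Bin2 as higher. Of the tau phosphatase subunits 2 of 6 fell, the protein phosphatase 2A subunits Ppp2r1a (-0.36) and Ppp2r2b (-0.31). Of the other microtubule-associated proteins 1 of 7 fell, Map6 (-0.39), with the most abundant, Map1b, at -0.32. All 7 were below 0, as was the median of genes with at least 10 CPM (-0.20). The median of the 7 was -0.24, and -0.06 with library totals. Of the Bin1 relatives and membrane-bending partners 4 of 10 fell: Sh3gl2 (-0.43) and Amph (-0.32), which bind dynamin as Bin1 does, Synj1 (-0.51) and Dnm3 (-0.35). The most abundant of these, Dnm1, measured 134.5, 360.0 and 650.9 TPM at 6 months and 662.4, 656.7 and 537.2 TPM at 24 months, with a log2 fold change of 0.59 that did not pass (interval -0.33 to 1.502), and like Aplp1 it was lowest in the 6-month mouse 10.

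**Figure D5:**
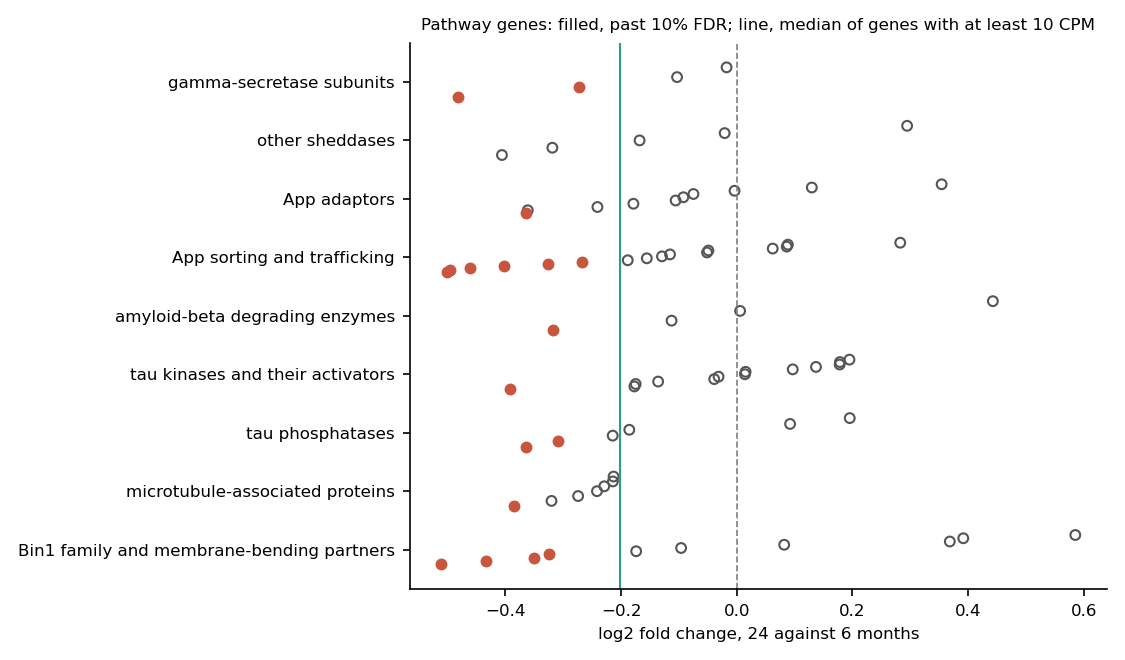
Log2 fold change of 24 against 6 months (x axis) of the 75 other genes of the App and tau pathways, by role; filled points passed 10% FDR in edgeR's quasi-likelihood test, the dashed line marks 0 and the solid line -0.20, the median of genes with at least 10 CPM. The 18 filled points are all below 0, with 6 among the sorting genes, 4 among the Bin1 partners and 2 among the gamma-secretase subunits.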

How the data were processed

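The authors trimmed reads with Trim Galore 0.6.4, mapped them to GRCm38 with STAR 2.7.3a and counted them on exons with featureCounts (Subread 2.0.0), keeping reads with several positions. They deposited whole-number counts per gene, which were used as they are although the stated options split such reads, and TPM computed from the counts and exonic lengths. No strand setting is stated.

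Ages were compared with edgeR 4.0.16 in R 4.3.3 (TMM factors, a minimum of 10 counts summed over libraries, quasi-likelihood test, no covariates), with Benjamini-Hochberg adjustment over the 32905 genes tested. FDR thresholds were 10% and the study's 1%. The 10% was chosen because earlier results of these data had 0 genes past 1% in the quasi-likelihood test. The test was checked on simulated data. Alternatives were library totals, DESeq2 1.42.0 size factors, TMM factors of genes with a mean of at least 10 CPM, filterByExpr, no filter, the likelihood ratio, exact and DESeq2 Wald tests, limma 3.58.1 on log2(TPM + 1) at a mean TPM of at least 1, each mouse left out, and, added after seeing the data, a GC offset (lowess). DESeq2 gave no adjusted p for 5745 genes, which were left out of its counts. Ratios of TPM values were tested by exact permutation (scipy 1.17.1).

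Genes and lists were chosen with earlier results of these data known, and some genes of the pathway list are not reported here. All 9 genes are named. Of each pathway group the most abundant gene and up to 4 past 10% FDR with the smallest p are named, with the 3 genes most correlated with App and Aplp1; those of Mapt were Atraid, Dmtn and Rbm12b2. Genes that passed with library totals are also named for the adaptors and for the Bin1 relatives and partners. Dnm1's levels were singled out after they were seen. The 6 mice are separate animals. Marker lists of oligodendrocyte precursors (1 of 3 lower, Gpr17), endothelial cells (0 of 5), choroid plexus (0 of 4), meninges (0 of 4) and red blood cells (1 of 5 lower, Hbb-bt) were also tested. GC content is that of each gene's longest GENCODE vM21 transcript, and 55240 of the 55421 identifiers were found in vM21.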

Additional observations from a re-analysis of the deposited data

How the results depend on the processing

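No paired analysis was possible because the ages share no replicate number. The count of the 9 genes past 10% FDR, 4 in the reported fit, was 0 with library totals, with TMM factors of genes with at least 10 CPM, with filterByExpr, with limma on log2(TPM + 1) and with the GC offset, 2 without a filter and with the DESeq2 Wald test (Aplp2 and App in both), 3 with DESeq2 size factors, the likelihood ratio test and the exact test (without Bace1), and 0 to 4 when each mouse was left out. The count with an unadjusted p under 0.05, 4, was 1 with library totals and with TMM factors of genes with at least 10 CPM, 2 with limma, 0 with the GC offset and 2 to 4 with each mouse left out. Of the 75 pathway genes, 18 past 10% FDR became 5 with library totals, 6 with TMM factors of genes with at least 10 CPM, 3 with filterByExpr, 0 with limma, 6 with the GC offset and 0 to 25 with each mouse left out. Over all genes tested, 6040 passed 10% FDR (2741 lower), against 4439 (318 lower) with library totals, 4800 (280 lower) with TMM factors of genes with at least 10 CPM, 4715 (293 lower) with the GC offset, 1538 with filterByExpr from 20490 genes tested, 24 with limma, 3048 with DESeq2 and 0 to 7998 with each mouse left out. The 1% FDR count of 0 over all genes became 1703 with the likelihood ratio test, 1122 with the exact test and 227 with DESeq2.

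The log2 fold change changed sign for Psen2 with library totals (0.0533), TMM factors of genes with at least 10 CPM (0.0728) and the GC offset (0.0181). Psenen became 0.1335, 0.1527 and 0.1149 in the same 3 settings, 0.0553 with filterByExpr and 0.0539 with limma. Mapt became 0.0923, 0.1116 and 0.0892, with 0.0134 by filterByExpr and 0.0132 by limma. Bin1 became 0.0807, 0.0998 and 0.0444, with 0.0027 by filterByExpr and 0.0026 by limma. Aplp1 became -0.13 without the 6-month mouse 10 and ranged up to 0.3584 with another mouse left out. With each mouse left out, the log2 difference ranged from 0.17 to 0.29 for Mapt to App, from 0.19 to 0.78 for Aplp1 to App, from -0.19 to -0.05 for Aplp2 to App, from -0.01 to 0.15 for Bace1 to Adam10, from -0.14 to -0.03 for Psen2 to Psenen and from -0.052 to 0.0347 for Bin1 to Mapt, with Bace1 to Adam10 at -0.0051 without the 6-month mouse 10 and Bin1 to Mapt at 0.0087 without mouse 11, 0.0115 without mouse 17 and 0.0347 without the 24-month mouse 2. The log2 fold changes of App, Aplp2, Adam10 and Bace1 stayed below 0 in the 16 alternatives, between -0.38 and -0.09 for App. The causes were not tested. With 3 mice per age, the exact permutation tests of the ratios cannot reach p under 0.05. With library totals in place of TMM, the log2 difference of summed CPM also moved from -0.26 to -0.07 for markers of oligodendrocyte precursors and from -0.04 to 0.16 for those of microglia.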
